A study of Homo sapiens with 4 samples.

Results

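The HOX genes, the homeobox transcription factor genes that lie in 4 clusters on separate human chromosomes, were followed in Daoy cells labelled EED-knockout and in wild type Daoy cells. The members were 38 HOX genes taken by symbol from a given list, out of 58174 genes in the deposited tables: 10 of the HOXA cluster, 10 of HOXB, 9 of HOXC and 9 of HOXD. Daoy is an established human medulloblastoma cell line, and its RNA-seq libraries were 2 labelled EED-knockout and 2 labelled wild type. EED belongs to the core of PRC2, the second Polycomb repressive complex, and the series title places the comparison in the question of how PRC2 bears on medulloblastoma growth. The labels give no treatment, no lesion in EED and no clone of origin, and nothing in them ties the 2 libraries of a genotype to separate cultures. P-values therefore reflect how far these 4 libraries scatter, a scatter that may be technical.

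HOX proteins give cells their identity along the head-to-tail axis of the embryo. Within each cluster, genes of low paralog number are used in the hindbrain and neck, and genes of high number in the lumbar, sacral and tail regions, an order called collinearity. The paralog number also marks genes of different clusters that descend from the same ancestral gene. PRC2 places the mark H3K27me3 on histones, EED binds that mark and is needed for its spread, and HOX clusters are textbook targets of the mark in cells that do not use them. The cerebellum, where medulloblastoma arises, forms in front of the hindbrain segments that express HOX genes. Clusters are rich in CG dinucleotides, and CG-rich promoters are where PRC2 is commonly recruited in vertebrates.

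The promoter windows of 4 members are printed because they span the range of levels described below: the pair with the highest and the pair with the lowest wild type level among the 18 members with 1 listed promoter. Each holds the 250 bases before the annotated start, from RefSeq on GRCh38.p14, 5′ to 3′ on the gene's own strand, with CG dinucleotides in capitals. HOXA7 lies on the minus strand (chr7:27156676-27156925), as do HOXA4 (chr7:27130758-27131007) and HOXB1 (chr17:48531012-48531261), and HOXD12 lies on the plus strand (chr2:176099545-176099794).
HOXA7: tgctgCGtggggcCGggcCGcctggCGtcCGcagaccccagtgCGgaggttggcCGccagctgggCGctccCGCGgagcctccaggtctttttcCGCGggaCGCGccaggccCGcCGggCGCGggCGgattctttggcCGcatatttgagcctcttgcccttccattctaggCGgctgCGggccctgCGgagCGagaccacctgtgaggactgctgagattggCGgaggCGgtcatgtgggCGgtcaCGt
HOXA4: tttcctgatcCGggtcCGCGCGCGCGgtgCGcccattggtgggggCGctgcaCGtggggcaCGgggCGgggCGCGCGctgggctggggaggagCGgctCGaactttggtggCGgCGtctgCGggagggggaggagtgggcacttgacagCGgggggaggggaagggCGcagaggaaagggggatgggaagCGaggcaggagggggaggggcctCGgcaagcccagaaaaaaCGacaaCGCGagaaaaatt
HOXD12: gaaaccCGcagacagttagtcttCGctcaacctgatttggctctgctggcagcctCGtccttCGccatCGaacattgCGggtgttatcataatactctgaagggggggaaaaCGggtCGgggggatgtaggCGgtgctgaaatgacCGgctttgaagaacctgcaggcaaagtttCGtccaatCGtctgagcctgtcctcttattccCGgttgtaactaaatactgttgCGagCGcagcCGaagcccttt
HOXB1: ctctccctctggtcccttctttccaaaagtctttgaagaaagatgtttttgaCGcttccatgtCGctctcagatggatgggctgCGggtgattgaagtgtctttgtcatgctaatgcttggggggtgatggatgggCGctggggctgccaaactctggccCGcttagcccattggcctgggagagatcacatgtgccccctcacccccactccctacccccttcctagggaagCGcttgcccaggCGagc
The windows hold 28 CG dinucleotides at HOXA7 and 26 at HOXA4, both genes among the most abundant members, 16 at HOXD12 and 7 at HOXB1, the 2 members with the lowest levels. The RefSeq table matched 20 of the 38 members with 27 windows, in which the median number of CG dinucleotides was 19 (range 0 to 40), beside a median of 11 over all 35116 promoters of the table. Members did not weigh equally in it. HOXA3 gave several windows, with 0 to 26 CG dinucleotides, HOXC4 and HOXC5 were listed with the same window, and HOXB1 was the only HOXB member matched. The highest number, 40, belonged to HOXA13, a gene near the threshold of detection used here, so the order of the printed windows does not extend to all members. The letters TATAAA, searched on both strands, occurred in 5 of the 27 windows (18.5%), both windows of HOXA10 among them, and in 10.7% of all promoters. These are letters in annotated windows, and which starts Daoy cells use was not measured.

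The libraries held 19022736 and 18164045 estimated counts in EED-knockout, and 19106382 and 17836112 in wild type. They did not group by genotype: over genes, the Pearson correlation of log2 CPM (counts scaled to library size) was 0.953 between the EED-knockout pair and 0.975 between the wild type pair, while EED-knockout 2 and wild type 2 reached 0.971. The targeted gene, EED, had 18.2 and 24.8 TPM in the EED-knockout libraries, against 27.6 and 25.9 TPM in the wild type libraries. Both EED-knockout values were lower, by less than the test could separate (log2 fold change -0.49 ± 0.27, standard error, edgeR unadjusted p = 0.105, adjusted p = 0.878), and EED protein was not measured. Of 9 listed markers of hedgehog medulloblastoma and its progenitors, GLI1, GLI2, PTCH1, ZIC1 and ZIC2, with the general progenitor and mesenchymal gene VIM, were above 1 TPM in each library, and NES was near 1 TPM. BARHL1 stayed under 0.5 TPM, and ATOH1, the defining factor of granule neuron progenitors, was at 0 in all 4. GLI1, a hedgehog target, had 5.45 and 4.27 TPM in the EED-knockout libraries, against 1.75 and 1.29 TPM in the wild type libraries. Both EED-knockout libraries were higher there, and it was the one marker of that list with an unadjusted p under 0.05 (log2 fold change 1.60 ± 0.64, standard error, edgeR unadjusted p = 0.0401, adjusted p = 0.823). Across the genome edgeR, which models counts over replicates, called 0 of 18349 tested genes at an adjusted p under 0.05, with 1082 (5.90%) at an unadjusted p under 0.05, and DESeq2, a second count model, called 81 of 19591 (0.413%).

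Nearly the whole HOX complement was transcribed in Daoy cells of both genotypes. Counting a gene as on where both libraries of a genotype reached 1 TPM (a level per transcript length, scaled to a fixed library total), 36 of 38 members were on in EED-knockout and 35 in wild type. Over all protein-coding genes the same rule gave 65.6% in EED-knockout and 64.7% in wild type. In EED-knockout the rule took in 10 of 10 HOXA members, 9 of 10 HOXB, 9 of 9 HOXC and 8 of 9 HOXD, and in wild type 9, 9, 9 and 8 of the same totals. All 13 paralog groups had at least 1 member on in both genotypes, from the hindbrain end to the tail end. No cluster had a silent stretch longer than 1 member in wild type at this threshold, and at a stricter one of 5 TPM 24 members were on in wild type. In bulk RNA fewer cells with a HOX gene on and less of its RNA per cell cannot be told apart.

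**Figure D1:**
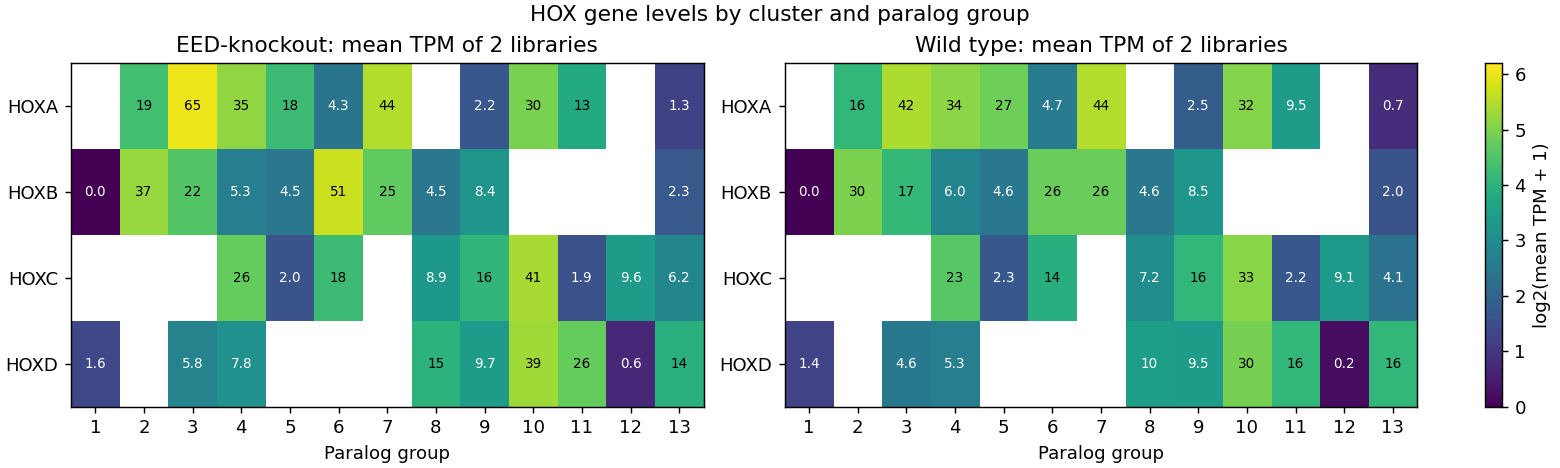
Mean TPM of each of the 38 HOX genes, with EED-knockout in the left grid and wild type in the right grid. Rows are clusters, columns are paralog groups, the colour is log2(mean TPM + 1), the printed value is the mean TPM of 2 libraries, and white cells hold no member. Only HOXB1 and HOXD12 are below 1 TPM in both grids, and HOXA13 is at 1.34 TPM in EED-knockout and 0.746 TPM in wild type.

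A pair of members was off in both genotypes, and 1 lay at the threshold. HOXB1, which patterns a hindbrain segment and the facial nerve, had 0 counts in all 4 libraries, where 3 counts would have been 0.157 to 0.168 CPM. HOXD12, a gene of the developing limb, had 7 and 11 estimated counts in EED-knockout, against 4 and 1 in wild type, too few to pass the filter for testing. HOXA13, which acts in the distal limb and hindgut, had 1.49 and 1.20 TPM in the EED-knockout libraries, against 0.805 and 0.688 TPM in the wild type libraries. It passed 1 TPM in both EED-knockout libraries and in neither wild type library, but the difference was not separated by edgeR (log2 fold change 0.66 ± 0.39, standard error, unadjusted p = 0.135, adjusted p = 0.881).

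The level order in wild type did not follow paralog number. HOXA7, a trunk gene, was the highest member with a mean of 43.8 TPM, above 80.3% of all tested genes. HOXA3, HOXA4, HOXC10, HOXA10, HOXB2 and HOXD10 followed with means of 42.1, 33.9, 33.5, 32.4, 30.3 and 29.6 TPM, a set that mixes hindbrain, neck and lumbar paralogs. At the low end of the members that were on stood HOXD1, HOXB13, HOXC11, HOXC5 and HOXA9, at 1.43, 2.02, 2.21, 2.27 and 2.55 TPM. Of the 37 pairs of neighbours in the wild type order, 25 had overlapping wild type libraries, so the order is fixed only coarsely. Paralog group 10 had the largest summed level in wild type and in EED-knockout, with 97.7 and 121 TPM in the EED-knockout libraries, against 96.2 and 94.6 TPM in the wild type libraries, and group 1 the smallest, with 1.56 and 1.56 TPM in the EED-knockout libraries, against 1.75 and 1.11 TPM in the wild type libraries.

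Neither test separated EED-knockout from wild type cells at any HOX gene. Of the 36 tested members, 0 passed an adjusted p of 0.05 by edgeR, beside 0.00% of all tested genes, and 0 by DESeq2, beside 0.413%. At an unadjusted p under 0.05 there were also 0 members by either tool, where 5.90% (edgeR) and 5.34% (DESeq2) of all tested genes passed. The smallest edgeR p belonged to HOXD8 (0.0648), HOXD11 (0.0650) and HOXC13 (0.0972). The members' log2 fold changes ran from -0.43 at HOXA5 to 0.66 at HOXA13 with a median of 0.03, against 0.01 over all tested genes. Of the members 21 had a log2 fold change above 0, as had 50.9% of all tested genes, and 15 were below 0. In CPM the EED-knockout pair stood wholly above the wild type pair at 10 members, a pattern found at 17.8% of all tested genes, and wholly below at 5, a pattern found at 18.0%.

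**Figure D2:**
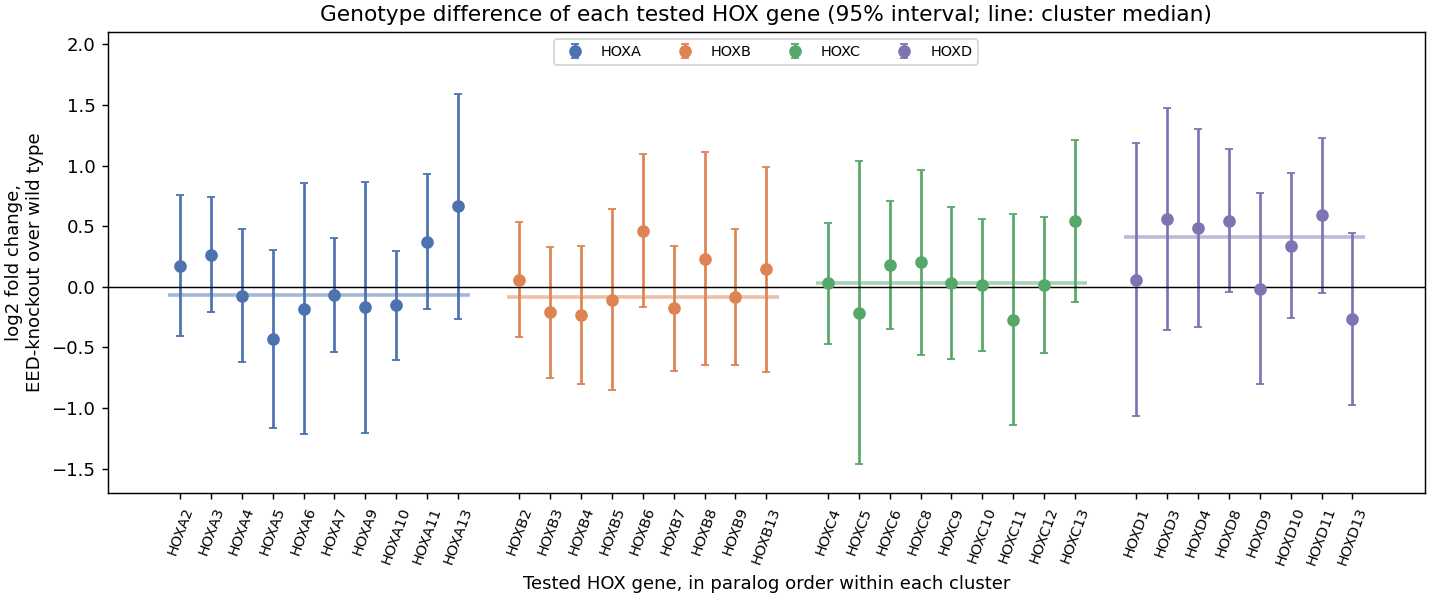
Log2 fold change of EED-knockout over wild type for each of the 36 tested HOX genes, in paralog order within each cluster. Points are edgeR estimates, bars are 95% intervals, and the pale line is the cluster median. Each interval spans 0, and the HOXD median of 0.41 stands above those of HOXA (-0.07), HOXB (-0.08) and HOXC (0.03).

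The clusters had different medians, and that of HOXD differed most from 0. The median log2 fold change was -0.07 in HOXA (4 members higher, 6 lower), -0.08 in HOXB (4 higher, 5 lower), 0.03 in HOXC (7 higher, 2 lower) and 0.41 in HOXD (6 higher, 2 lower). The HOXD median was within the reach of 1 library's deviation: the same median taken between replicates was 0.45 for wild type 1 over wild type 2 and -0.33 for EED-knockout 1 over EED-knockout 2. Leaving out EED-knockout 2 gave 0.17, and leaving out wild type 2 gave 0.20. Tested genes within 5 Mb of the clusters, HOX genes left out, had medians of -0.02 around HOXA (67 genes), 0.07 around HOXB (150), 0.09 around HOXC (206) and 0.02 around HOXD (58).

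**Figure D3:**
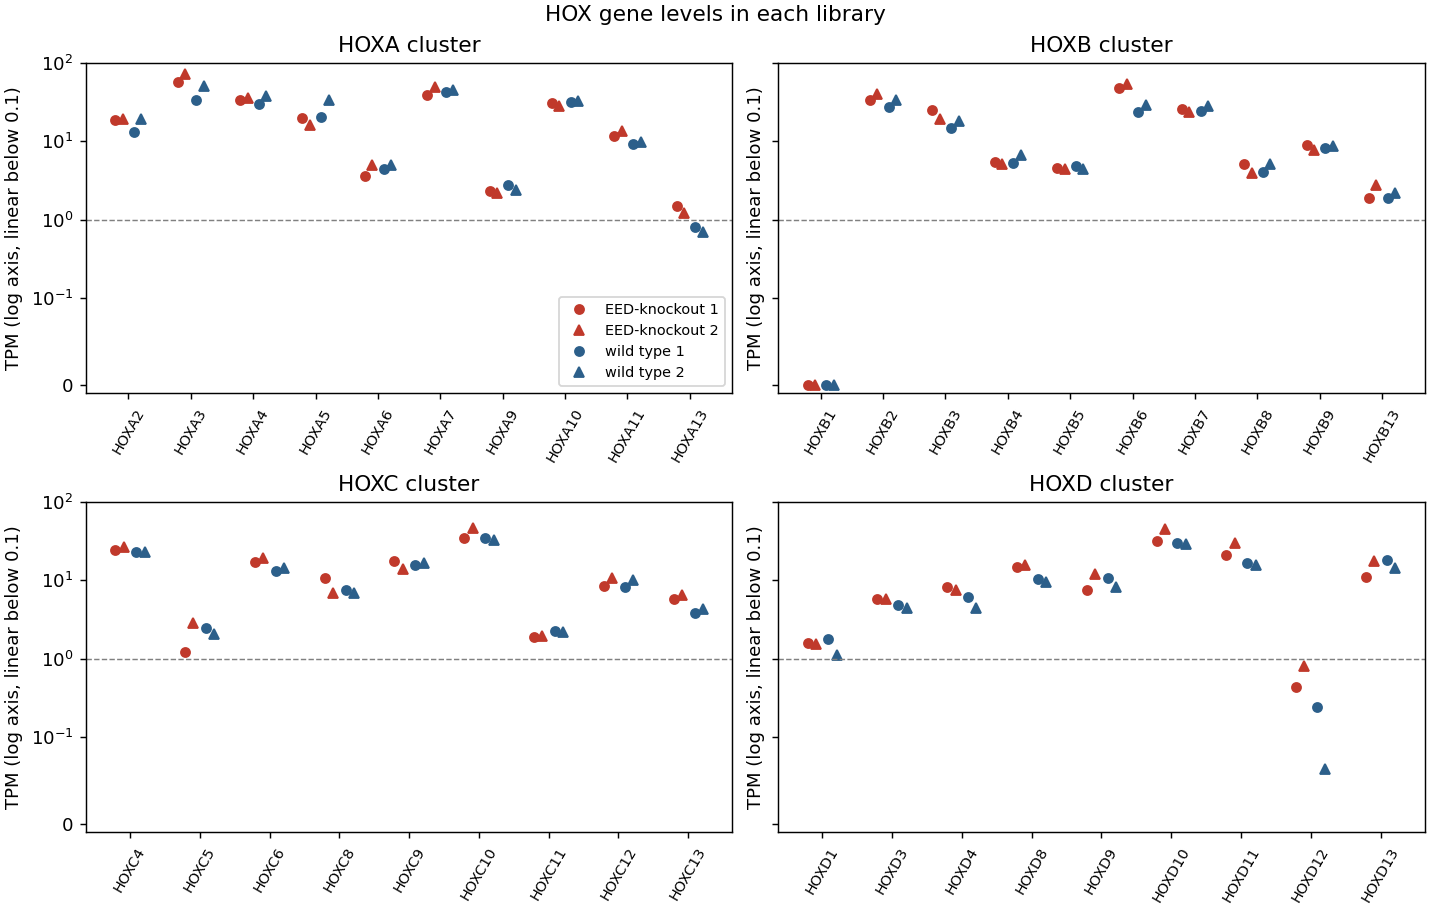
TPM of each HOX gene in each library on a log axis that is linear below 0.1, by cluster, with the EED-knockout libraries (red) left of the wild type libraries (blue). Circles are library 1 and triangles library 2, and the dashed line is 1 TPM. At HOXD8 and HOXD11 both red points stand above both blue points, while at HOXD9 and HOXD13 the colours mix, and HOXB1 is at 0 in all 4 libraries.

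In the HOXD cluster, on chromosome 2 (chr2:176092891-176190907 in GRCh38), 4 of 8 tested members kept their groups apart in CPM, each with EED-knockout higher. That order was found at 17.8% of all tested genes. The reverse order, at 0 tested HOXD members, was found at 18.0%. At the anterior end, HOXD1, used in mouse sensory neurons, had 1.56 and 1.56 TPM in the EED-knockout libraries, against 1.75 and 1.11 TPM in the wild type libraries. HOXD3, of the neck, had 5.83 and 5.75 TPM in the EED-knockout libraries, against 4.87 and 4.41 TPM in the wild type libraries. HOXD4, of the hindbrain and upper neck, had 8.12 and 7.55 TPM in the EED-knockout libraries, against 6.11 and 4.48 TPM in the wild type libraries. The groups overlapped at HOXD1 and did not at HOXD3 or HOXD4, where wild type 2 was the lowest library. On the CPM scale that enters the test HOXD3 had 8.22 and 7.96 CPM in EED-knockout, against 7.16 and 3.82 CPM in wild type, a log2 fold change of 0.56 ± 0.39 (standard error). Its 95% interval was -0.36 to 1.48, and the log2 fold change was 0.17 when wild type 2 was left out and 1.08 when wild type 1 was left out.

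HOXD8, of the trunk, had the smallest p among all members. It had 14.3 and 15.7 CPM in the EED-knockout libraries, against 10.2 and 10.4 CPM in the wild type libraries. Both pairs were tight and did not overlap, with a log2 fold change of 0.55 ± 0.25 (standard error), a 95% interval of -0.04 to 1.13, an edgeR unadjusted p of 0.0648 and an adjusted p of 0.851. Per length its level was 14.6 and 15.8 TPM in EED-knockout, against 10.4 and 9.62 TPM in wild type.

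The posterior HOXD genes, which shape the limb and the lumbar and sacral regions, differed between the EED-knockout libraries. HOXD9 had 7.47 and 12.01 TPM in the EED-knockout libraries, against 10.7 and 8.29 TPM in the wild type libraries. HOXD10, required for lumbar motor neurons in the mouse, had 31.9 and 45.7 TPM in the EED-knockout libraries, against 30.2 and 28.98 TPM in the wild type libraries. HOXD11, of the forearm and kidney, had 21.4 and 30.2 TPM in the EED-knockout libraries, against 16.6 and 15.8 TPM in the wild type libraries. At each of these genes EED-knockout 2 was above EED-knockout 1 and wild type 1 above wild type 2. HOXD13, of the digits, followed the same order within genotype with 11.2 and 17.5 TPM in the EED-knockout libraries, against 18.04 and 14.3 TPM in the wild type libraries. Per length the groups were apart at HOXD10 and HOXD11, and in CPM, the scale tested, only at HOXD11. HOXD11 had 17.4 and 25.1 CPM in EED-knockout, against 14.9 and 13.4 CPM in wild type, and its log2 fold change was 0.59 ± 0.27 (standard error), with a 95% interval of -0.05 to 1.23 and an edgeR unadjusted p of 0.0650. Leaving out EED-knockout 2 gave a HOXD11 log2 fold change of 0.30. HOXD10 had a log2 fold change of 0.34 ± 0.25 (standard error), and HOXD13 one of -0.26 ± 0.30, which became 0.02 when EED-knockout 1 was left out. Summed over HOXD9 to HOXD13 the level was 72.4 and 106 TPM in the EED-knockout libraries, against 75.7 and 67.4 TPM in the wild type libraries, so that EED-knockout 2 was highest and EED-knockout 1 lay between the wild type libraries.

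In the HOXA cluster (chr7:27100354-27200106), HOXA3 and HOXA4 of the anterior end ranked 2 and 3 among the members by wild type TPM, and HOXA2 ranked 15. HOXA2, which patterns the second pharyngeal arch, had 18.6 and 19.5 TPM in the EED-knockout libraries, against 13.1 and 19.1 TPM in the wild type libraries. HOXA3, needed for the thymus and parathyroid, had 57.99 and 72.7 TPM in the EED-knockout libraries, against 33.3 and 50.8 TPM in the wild type libraries. HOXA4, of the neck, had 34.1 and 35.5 TPM in the EED-knockout libraries, against 30.1 and 37.8 TPM in the wild type libraries. The groups were apart only at HOXA3, where wild type 1 was the lowest library, and its log2 fold change on counts was 0.27 ± 0.20 (standard error, edgeR unadjusted p = 0.225).

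The central HOXA genes had negative estimates, and in CPM their groups overlapped. HOXA5, needed for lung development, had 19.8 and 16.4 TPM in the EED-knockout libraries, against 20.7 and 34.2 TPM in the wild type libraries. Both EED-knockout libraries were lower per length, and wild type 2 stood well above the other 3 libraries. In CPM HOXA5 had 13.5 and 11.6 CPM in EED-knockout, against 12.8 and 21.2 CPM in wild type, with overlap. HOXA5 had the lowest log2 fold change of all members (-0.43 ± 0.31, standard error, edgeR unadjusted p = 0.210), a value that was -0.03 when wild type 2 was left out and -0.75 when wild type 1 was left out. HOXA6, a trunk gene, had 3.57 and 5.02 TPM in the EED-knockout libraries, against 4.48 and 4.99 TPM in the wild type libraries. HOXA7 had 38.6 and 49.4 TPM in the EED-knockout libraries, against 42.3 and 45.3 TPM in the wild type libraries. At HOXA6 and HOXA7 the EED-knockout libraries lay on either side of the wild type pair.

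Posterior HOXA genes ranged from about 1 to over 30 TPM. HOXA9, a factor of trunk patterning and of leukaemia, had 2.29 and 2.16 TPM in the EED-knockout libraries, against 2.74 and 2.35 TPM in the wild type libraries. HOXA10, of the uterus and lumbar spine, had 31.1 and 28.6 TPM in the EED-knockout libraries, against 31.8 and 32.9 TPM in the wild type libraries, lower in both EED-knockout libraries. Both were also lower at HOXA9 per length, but not in CPM. HOXA11, of the forearm and uterus, had 11.7 and 13.6 TPM in the EED-knockout libraries, against 9.16 and 9.82 TPM in the wild type libraries. Both EED-knockout libraries were higher at HOXA11, with tight wild type values and a log2 fold change of 0.37 ± 0.23 (standard error, edgeR unadjusted p = 0.158, adjusted p = 0.881).

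In the HOXB cluster (chr17:48528526-48729178), the scale of measurement set the direction at HOXB3 and the size of the difference at HOXB6. HOXB3, of the hindbrain and neck, had 24.96 and 19.5 TPM in the EED-knockout libraries, against 14.99 and 18.1 TPM in the wild type libraries, so that both EED-knockout libraries were higher per length. In CPM it had 21.8 and 17.8 CPM in the EED-knockout libraries, against 22.6 and 23.2 CPM in the wild type libraries, and both EED-knockout libraries were lower, with a log2 fold change of -0.21 ± 0.23 (standard error) that was 0.33 on counts from length-scaled TPM. Its transcripts differed in direction per length. The coding HOXB3-001 had 4.86 and 4.77 TPM in the EED-knockout libraries, against 5.12 and 5.74 TPM in the wild type libraries. HOXB3-010, of 595 bases, had 1.53 and 1.41 TPM, against 3.20 and 2.80 TPM. HOXB3-013, of 466 bases, had 5.74 and 2.90 TPM, against 0 and 0.0048 TPM. HOXB6, a trunk gene, had 47.8 and 53.7 TPM in the EED-knockout libraries, against 23.4 and 29.2 TPM in the wild type libraries. The groups were far apart per length at HOXB6, less so in CPM, where it had 14.6 and 17.3 CPM in EED-knockout, against 10.1 and 13.1 CPM in wild type and a log2 fold change of 0.46 ± 0.27 (standard error, edgeR unadjusted p = 0.127, adjusted p = 0.881).

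The other HOXB genes, HOXB1 apart, were on in both genotypes. HOXB2, which acts in the hindbrain, had 33.7 and 40.7 TPM in the EED-knockout libraries, against 27.1 and 33.5 TPM in the wild type libraries. HOXB4, known for expanding blood stem cells, had 5.48 and 5.13 TPM in the EED-knockout libraries, against 5.29 and 6.69 TPM in the wild type libraries. HOXB5, of the trunk and gut, had 4.58 and 4.43 TPM in the EED-knockout libraries, against 4.82 and 4.42 TPM in the wild type libraries. Groups overlapped at HOXB4 and HOXB5 per length, and at HOXB2 EED-knockout 1 lay just above wild type 2.

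Further along the cluster, HOXB7 had 25.8 and 23.5 TPM in the EED-knockout libraries, against 24.5 and 28.3 TPM in the wild type libraries. HOXB8, studied for its part in microglia and grooming in the mouse, had 5.10 and 3.92 TPM in the EED-knockout libraries, against 4.10 and 5.14 TPM in the wild type libraries. HOXB9 had 8.93 and 7.79 TPM in the EED-knockout libraries, against 8.25 and 8.65 TPM in the wild type libraries. None of these kept the groups apart per length, although in CPM, the scale tested, both EED-knockout libraries were below both wild type libraries at HOXB7 and at HOXB4. HOXB13, a prostate factor set apart at the far end of the cluster, had 1.91 and 2.78 TPM in the EED-knockout libraries, against 1.87 and 2.18 TPM in the wild type libraries, with EED-knockout 2 highest.

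The HOXC cluster (chr12:53938765-54056030) had 9 of 9 members on in both genotypes and a median difference near 0. HOXC4, of the neck and upper thorax, had 24.3 and 26.7 TPM in the EED-knockout libraries, against 23.1 and 23.4 TPM in the wild type libraries. HOXC5 had 1.20 and 2.84 TPM in the EED-knockout libraries, against 2.47 and 2.07 TPM in the wild type libraries, with the wild type libraries between the EED-knockout ones. HOXC6, of limb-level motor neurons, had 17.01 and 19.1 TPM in the EED-knockout libraries, against 13.2 and 14.3 TPM in the wild type libraries. Per length the groups were apart at HOXC4 and HOXC6, and in CPM only at HOXC6, where the log2 fold change was 0.18 ± 0.22 (standard error).

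HOXC8 and HOXC9 act at thoracic level, where HOXC9 keeps motor neurons from taking a limb fate. HOXC8 had 10.8 and 6.94 TPM in the EED-knockout libraries, against 7.60 and 6.85 TPM in the wild type libraries. HOXC9 had 17.8 and 13.97 TPM in the EED-knockout libraries, against 15.7 and 16.5 TPM in the wild type libraries. HOXC10, a lumbar gene and the highest of the cluster, had 34.7 and 46.98 TPM in the EED-knockout libraries, against 34.3 and 32.7 TPM in the wild type libraries. At HOXC8 and HOXC10 a single EED-knockout library stood well above the other 3, library 1 at HOXC8 and library 2 at HOXC10, and at HOXC9 the EED-knockout libraries lay on either side of the wild type pair. In CPM the groups overlapped at all 3 genes.

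The posterior end of HOXC was present as well. HOXC11 had 1.92 and 1.93 TPM in the EED-knockout libraries, against 2.24 and 2.17 TPM in the wild type libraries, lower in both EED-knockout libraries. HOXC12 had 8.49 and 10.6 TPM in the EED-knockout libraries, against 8.11 and 10.1 TPM in the wild type libraries. HOXC13, needed for hair and nails, had 5.85 and 6.51 TPM in the EED-knockout libraries, against 3.86 and 4.27 TPM in the wild type libraries. HOXC13 was the member outside HOXD with the smallest p: in CPM it had 9.80 and 11.1 CPM in EED-knockout, against 7.05 and 7.30 CPM in wild type, without overlap, and a log2 fold change of 0.54 ± 0.28 (standard error, edgeR unadjusted p = 0.0972, adjusted p = 0.872).

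Read across clusters, paralog groups did not move as blocks. All 3 members of group 8 had positive estimates, with a median of 0.23, and all 3 of group 5 had negative ones, with a median of -0.21, but only HOXD8 of these 6 genes kept its groups apart in CPM. EED-knockout was the higher group there, as at 17.8% of all tested genes. The signs of HOXB8 and HOXC8 in group 8, and of HOXB5 and HOXC5 in group 5, changed when 1 library was left out, and that of HOXB8 also on length-scaled counts (-0.12). Group 13 combined HOXA13 (0.66), HOXB13 (0.15), HOXC13 (0.54) and HOXD13 (-0.26). By class, the median was 0.06 for the 10 tested genes of groups 1 to 4, -0.07 for the 11 of groups 5 to 8 and 0.02 for the 15 of groups 9 to 13.

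Summed levels gave different pictures per length and per library size. Summed over all members the level was 602 and 678 TPM in the EED-knockout libraries, against 512 and 574 TPM in the wild type libraries, a ratio of means of 1.18, and the EED-knockout libraries were higher without overlap. In CPM the sums were 589 and 649 CPM in EED-knockout, against 591 and 589 CPM in wild type, a ratio of 1.05, and EED-knockout 1 was at the level of the wild type pair. By cluster the TPM sums were without overlap in HOXB (158 and 161 TPM in the EED-knockout libraries, against 114 and 136 TPM in the wild type libraries), HOXC (122 and 136 TPM in the EED-knockout libraries, against 111 and 112 TPM in the wild type libraries) and HOXD (103 and 137 TPM in the EED-knockout libraries, against 98.9 and 87.1 TPM in the wild type libraries), and overlapped in HOXA (219 and 244 TPM in the EED-knockout libraries, against 189 and 238 TPM in the wild type libraries). In CPM the sums overlapped in each of the 4 clusters. HOXA held the largest share of HOX TPM in each library, 36.4% and 36.0% in EED-knockout, against 36.8% and 41.5% in wild type.

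**Figure D4:**
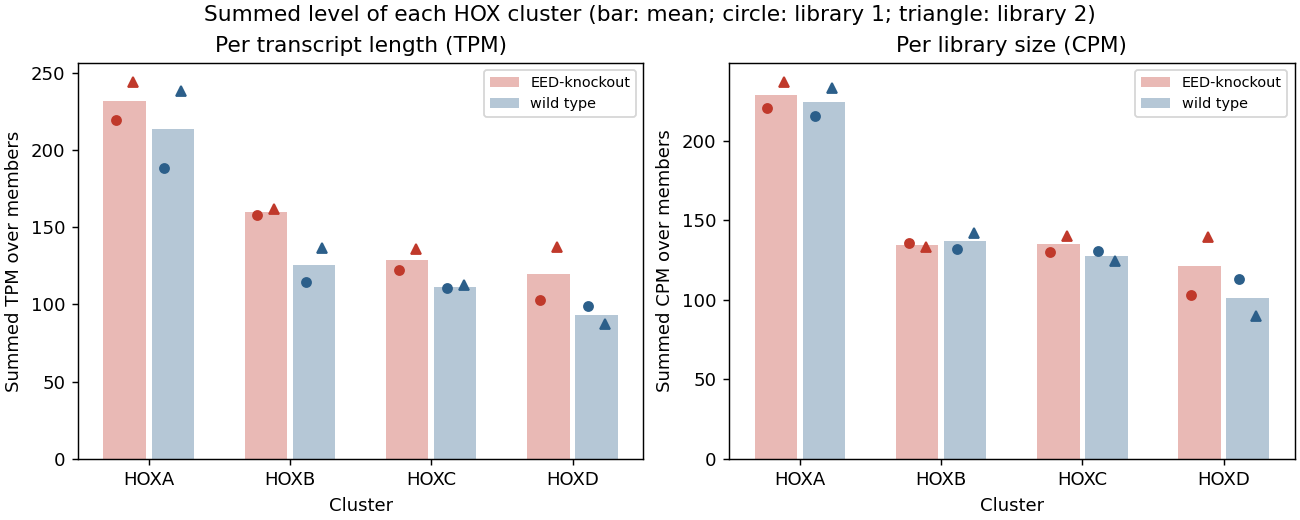
Summed level of the members of each cluster, in TPM on the left and CPM on the right, with EED-knockout left of wild type in each pair. Bars are means of 2 libraries, circles library 1 and triangles library 2. The TPM points of HOXB, HOXC and HOXD do not overlap between genotypes, while the CPM points of each cluster do.

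Short annotated transcripts weighed more in TPM than in counts, and more in EED-knockout. The 24 HOX transcripts under 600 bases, of 108 listed, took 20.98% and 23.7% of HOX TPM in EED-knockout, against 15.9% and 19.3% in wild type. They took only 3.26% and 3.77% of HOX counts in EED-knockout, against 2.49% and 3.11% in wild type. Without them the TPM summed over all members was 476 and 517 in EED-knockout, against 431 and 463 in wild type, still without overlap. The cluster sums above include them. In HOXB, the short HOXB6-004 alone had 27.5 and 33.7 TPM in EED-knockout, against 11.2 and 15.5 TPM in wild type. Without transcripts under 600 bases the HOXB sums overlapped, both EED-knockout libraries lying between the wild type libraries. The HOXC and HOXD sums stayed without overlap, EED-knockout higher. The effective length by which the authors' TPM divides a count was also shorter in EED-knockout for several short transcripts. HOXB6-004, of 468 bases, had 193 and 192 bases in EED-knockout, against 211 and 216 bases in wild type. HOXA3-004, of 503 bases, had 227 and 226 bases, against 259 and 281 bases. HOXB3-011, of 398 bases, had 127 and 127 bases, against 142 and 148 bases. At HOXA3-008 the groups overlapped, at 286 and 288 bases, against 283 and 315 bases. TPM comparisons between genotypes at HOXA3, HOXB3 and HOXB6 carry this difference. How much of the TPM difference rests on this was not tested.

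The HOXB6 and HOXA3 differences were spread unevenly over transcripts. HOXB6-004, annotated as a processed transcript and not as coding, had 73 and 88 estimated counts in the EED-knockout libraries, against 34 and 44 estimated counts in the wild type libraries. It made up 57.6% and 62.7% of the gene's TPM in EED-knockout, against 47.7% and 53.0% in wild type, and its edgeR unadjusted p was 0.0840. The coding HOXB6-001 had 177 and 194 estimated counts in the EED-knockout libraries, against 137 and 156 estimated counts in the wild type libraries. Both transcripts were higher in both EED-knockout libraries, the short one by 0.99 and the coding one by 0.28 on the log2 scale. At HOXA3 a pair of annotated coding transcripts had estimates of opposite sign. HOXA3-001 had 144 and 148 estimated counts in the EED-knockout libraries, against 279 and 211 estimated counts in the wild type libraries, a log2 fold change of -0.81 ± 0.31 (standard error, edgeR unadjusted p = 0.0521). HOXA3-002 had 745 and 725 estimated counts in the EED-knockout libraries, against 387 and 569 estimated counts in the wild type libraries, a log2 fold change of 0.56 ± 0.26 (standard error, edgeR unadjusted p = 0.0916). HOXA3-001 was lower and HOXA3-002 higher in both EED-knockout libraries, each without overlap. The short coding HOXA3-004, of 503 bases, held the largest share of the gene's TPM, 53.5% and 63.7% in the EED-knockout libraries, against 46.1% and 53.6% in the wild type libraries. It had 31.03 and 46.3 TPM in the EED-knockout libraries, against 15.4 and 27.2 TPM in the wild type libraries, the largest part of the HOXA3 difference in TPM. In estimated counts it had 97.1 and 143 estimated counts in EED-knockout, against 57.5 and 100.5 estimated counts in wild type, with overlap (log2 fold change 0.55 ± 0.47, standard error, edgeR unadjusted p = 0.305).

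Of 73 HOX transcripts tested, 0 passed an adjusted p of 0.05 in edgeR, beside 0.00% of 56858 tested transcripts, and 2 had an unadjusted p under 0.05, beside 4.64%. The first was HOXA4-202, with 0 and 0 estimated counts in the EED-knockout libraries, against 19.01 and 155 estimated counts in the wild type libraries (edgeR unadjusted p = 0.0143, adjusted p = 0.829). It was listed at 0 in both EED-knockout libraries, while the 2 wild type libraries differed widely, and another coding transcript, HOXA4-001, had 229 and 344 estimated counts in EED-knockout, against 221 and 208 estimated counts in wild type. The second was HOXC6-003, with 12.2 and 11.8 estimated counts in the EED-knockout libraries, against 1.39 and 0 estimated counts in the wild type libraries (edgeR unadjusted p = 0.0389). HOXA11-001 had 257 and 199 estimated counts in the EED-knockout libraries, against 131 and 131 estimated counts in the wild type libraries (edgeR unadjusted p = 0.0665), and HOXA11-002 had 79.7 and 183 estimated counts in EED-knockout, against 138 and 134 estimated counts in wild type, so the groups were apart at HOXA11-001 and overlapped at HOXA11-002. Transcripts of a gene share most of their sequence, so the estimates of single transcripts carry an uncertainty that the deposited values do not give.

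**Figure D5:**
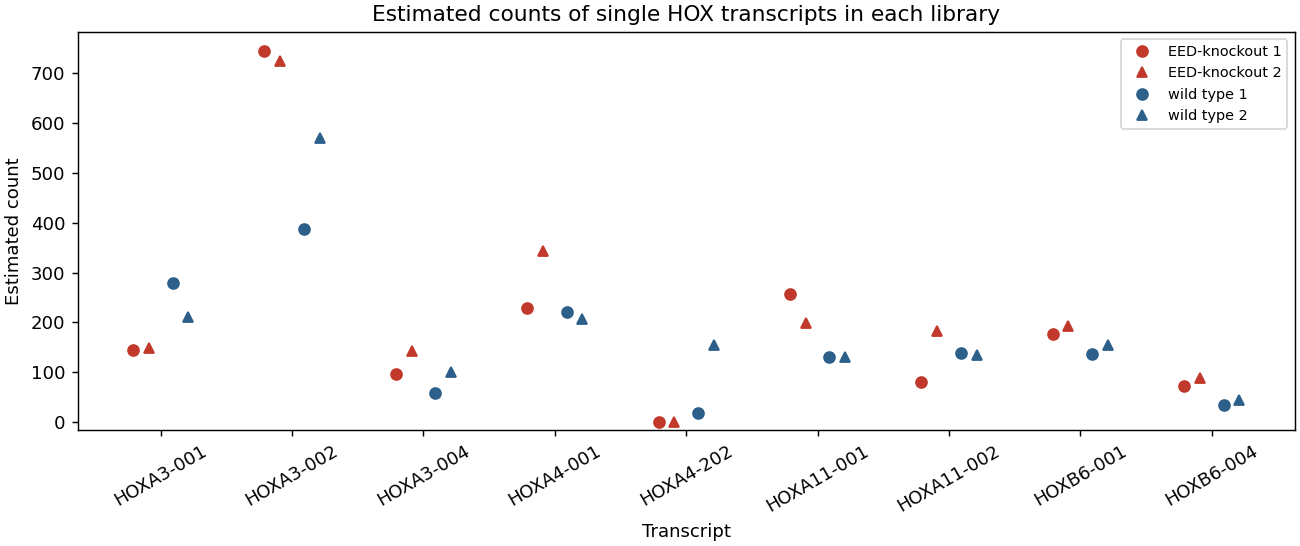
Estimated counts of 9 HOX transcripts in each library, with EED-knockout (red) left of wild type (blue); circles are library 1 and triangles library 2. HOXA3-001 is lower and HOXA3-002 higher in both EED-knockout libraries, HOXA4-202 is at 0 in both, and HOXA11-001, HOXB6-001 and HOXB6-004 are higher in both.

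HOX loci overlap one another, which limits how firmly a read belongs to a gene. In the annotation, 22 of the 38 members overlapped another gene on the same strand with a mean of at least 1 TPM in wild type, and 22 overlapped such a gene on the opposite strand. The sources used here do not state whether the libraries kept strand, so a member and its antisense partner may share reads. At HOXB3 and HOXB6 the antisense RNA HOXB-AS3 averaged 26.6 TPM in EED-knockout and 14.8 TPM in wild type. HOXD-AS2, over HOXD3, HOXD8 and HOXD9, averaged 14.8 TPM in EED-knockout and 10.7 TPM in wild type. Both antisense RNAs had the higher mean in EED-knockout, as HOXB6 and HOXD8 had. HOXB-AS3 also lies over HOXB4, with means of 5.31 TPM in EED-knockout and 5.99 TPM in wild type, and HOXB5, with 4.50 TPM in EED-knockout and 4.62 TPM in wild type. HOXD9, under HOXD-AS2, averaged 9.74 TPM in EED-knockout and 9.49 TPM in wild type. The part of the antisense RNAs in the members' values was not tested.

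The long noncoding RNAs of the clusters were measured alongside. HOTAIR, transcribed from HOXC and known for binding PRC2, had 5.45 and 7.02 TPM in the EED-knockout libraries, against 4.61 and 4.57 TPM in the wild type libraries. HOTAIRM1, at the anterior end of HOXA, had 58.4 and 48.5 TPM in the EED-knockout libraries, against 47.5 and 67.03 TPM in the wild type libraries. HOTTIP, at the posterior end of HOXA beside HOXA13, had 0.417 and 0.372 TPM in the EED-knockout libraries, against 0.0217 and 0.319 TPM in the wild type libraries. HOTAIR was higher in both EED-knockout libraries (log2 fold change 0.33 ± 0.36, standard error, edgeR unadjusted p = 0.390), HOTAIRM1 overlapped, and HOTTIP stayed under 1 TPM.

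Genes flanking the clusters included low and abundant ones, and none was called. EVX1, the homeobox gene next to HOXA13, had 0.266 and 0.0464 TPM in the EED-knockout libraries, against 0.0460 and 0 TPM in the wild type libraries. EVX2, its counterpart beside HOXD13, had 0.143 and 0.197 TPM in the EED-knockout libraries, against 0.121 and 0.0930 TPM in the wild type libraries. Both stayed under 1 TPM in each library, while HOXD13, next to EVX2, was read at over 10 TPM in each. Of 13 flanking genes found, 7 were tested and on in both genotypes, with a median log2 fold change of 0.07. Among them 0 were called by edgeR in either direction, beside 0.00% of all tested genes. In CPM 0 were without overlap between the genotypes, where 17.8% of all tested genes had EED-knockout wholly above and 18.0% wholly below.

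HOX proteins bind DNA together with TALE cofactors, the PBX, MEIS and PKNOX proteins, and all 9 listed were on in both genotypes. Of the 9 tested, 0 rose and 0 fell at an adjusted p of 0.05 in edgeR, beside 0.00% of all tested genes. Their median log2 fold change was 0.20, with 6 higher and 3 lower. MEIS1, a frequent partner of HOXA9, had 5.21 and 6.04 TPM in the EED-knockout libraries, against 3.29 and 2.70 TPM in the wild type libraries. PBX2 had 46.6 and 57.8 TPM in the EED-knockout libraries, against 58.2 and 59.5 TPM in the wild type libraries. MEIS1 was higher and PBX2 lower in both EED-knockout libraries, with edgeR unadjusted p of 0.120 and 0.142. In CPM 2 of the 9, MEIS1 and PBX4, had the EED-knockout pair wholly above the wild type pair, beside 17.8% of all tested genes. PBX2 was the 1 wholly below, beside 18.0%.

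Upstream of HOX genes stand the MLL (KMT2A) complex, which opposes Polycomb, and the CDX factors, which switch on trunk HOX genes in the embryo. Of 11 listed genes 9 were tested, with 0 called in either direction by edgeR, beside 0.00% of all tested genes. Their median log2 fold change was 0.00. KMT2A had 23.1 and 23.7 TPM in the EED-knockout libraries, against 15.97 and 19.9 TPM in the wild type libraries. In CPM, the scale tested, its groups overlapped, with 128 and 141 CPM in EED-knockout, against 119 and 138 CPM in wild type. The KMT2A log2 fold change was 0.07 ± 0.19 (standard error, edgeR unadjusted p = 0.741). CDX2 had 2.44 and 2.66 TPM in the EED-knockout libraries, against 0.0692 and 1.07 TPM in the wild type libraries, a log2 fold change of 3.11 ± 0.63 (standard error) with an edgeR unadjusted p of 0.00174 and an adjusted p of 0.664. CDX2 was higher in both EED-knockout libraries, and DESeq2 gave it an adjusted p of 0.0936. CDX4 was at 0 in all 4 libraries.

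Retinoic acid turns on HOX genes from the anterior end. Of 12 listed retinoid genes 11 were tested, with 0 called in either direction by edgeR, beside 0.00% of all tested genes. Of these 8 were higher and 3 lower, with a median log2 fold change of 0.38, where 50.9% of all tested genes were higher. In CPM the EED-knockout pair stood wholly above the wild type pair at 5, beside 17.8% of all tested genes. It stood wholly below at 1, beside 18.0%. CRABP1, which binds retinoic acid in the cytoplasm, had 8.63 and 11.3 TPM in the EED-knockout libraries, against 0.955 and 1.52 TPM in the wild type libraries. CRABP2, which carries it to the nucleus, had 41.04 and 37.2 TPM in the EED-knockout libraries, against 4.59 and 23.2 TPM in the wild type libraries. CYP26B1, which degrades it, had 11.9 and 22.8 TPM in the EED-knockout libraries, against 5.39 and 9.34 TPM in the wild type libraries. Per length each of the 3 was higher in both EED-knockout libraries, and wild type 2 stood well above wild type 1 at CRABP2. In CPM the groups overlapped at CYP26B1, with 16.3 and 30.9 CPM in EED-knockout, against 10.1 and 16.6 CPM in wild type. RXRG, a retinoid X receptor, was lower in both EED-knockout libraries in CPM, with 8 and 38 estimated counts in EED-knockout, against 47 and 101 estimated counts in wild type (log2 fold change -1.73 ± 0.76, standard error, edgeR unadjusted p = 0.0565), and overlapped in TPM. CRABP1, with a log2 fold change of 3.03 ± 0.54 (standard error), an edgeR unadjusted p of 0.000803 and an adjusted p of 0.508, was the gene of the list that DESeq2 called, with an adjusted p of 0.0167. DESeq2 called 0.413% of all genes it tested.

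Markers of other cell types were set beside these values. Summed over 4 blood markers the level was 1.13 and 0.669 TPM in EED-knockout, against 0 and 0.394 TPM in wild type, with CD3E at 0 in all 4 libraries. Summed over 3 endothelial markers it was 4.02 and 0.354 TPM in EED-knockout, against 0.731 and 2.73 TPM in wild type. Summed over 3 fibroblast markers it was 1020 and 818 TPM in EED-knockout, against 527 and 966 TPM in wild type, with COL1A1 and COL1A2 abundant in each library. Epithelial markers summed to 647 and 625 TPM in EED-knockout, against 505 and 740 TPM in wild type, nearly all KRT18 and KRT8, with EPCAM and CDH1 under 1 TPM. Neuron markers summed to 98.6 and 122 TPM in EED-knockout, against 105 and 80.1 TPM in wild type, mostly TUBB3. Of the 4 neuron markers 3 had estimates above 0, as had 50.9% of all tested genes, and SNAP25 was at -0.03. Their median log2 fold change was 0.65. MAP2 had 34 and 19 estimated counts in EED-knockout, against 5 and 6 estimated counts in wild type (log2 fold change 2.18 ± 0.65, standard error, edgeR unadjusted p = 0.0120, adjusted p = 0.799). RBFOX3 had 2.58 and 1.02 CPM in EED-knockout, against 0.550 and 0.995 CPM in wild type (edgeR unadjusted p = 0.109). Both were at low levels and without overlap, EED-knockout higher, an order found at 17.8% of all tested genes. At RBFOX3 the groups were barely apart, by 19 estimated counts in EED-knockout 2 against 18 in wild type 2. Glial markers summed to 5.15 and 6.71 TPM in EED-knockout, against 4.94 and 6.04 TPM in wild type. Skeletal muscle markers summed to 0.502 and 0.449 TPM in EED-knockout, against 5.51 and 1.01 TPM in wild type, nearly all DES. None of these lists held a gene called by edgeR, beside 0.00% of all tested genes, and 0 blood and 0 skeletal muscle markers passed its filter. DES was called by DESeq2 and not tested by edgeR. It had 3 and 1 estimated counts in EED-knockout, against 113 and 8 estimated counts in wild type. The part of these markers in the HOX values was not tested.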

How the data were processed

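Total RNA of 2 EED-knockout and 2 wild type Daoy libraries was measured by RNA-seq. The authors ran kallisto 0.43.1 (build hg38, per the submitters' processing notes), and the deposited files hold its estimated counts for each transcript. The deposited TPM values, per the file headers, correct those counts for each transcript's effective length. Transcript release, run settings and strandedness: not given in the sources used here.

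Estimated counts and TPM of 199324 transcripts were summed to 58174 genes by gene ID, and counts were rounded to whole numbers for testing. Genotypes were compared over all genes in edgeR 4.0.16 (R 4.3.3) by its quasi-likelihood test (TMM factors, filterByExpr with minimum count 10 and minimum total 15, no covariate, two-sided, Benjamini-Hochberg adjustment at 0.05). CPM are scaled by TMM factors. Fold changes carry 95% intervals from this model. A like test of single transcripts was added after the data were seen. The floor for a count of 0 was 3 counts, which covers counting error only. Medians over members are descriptions without a test. Coordinates come from GENCODE 29 on GRCh38, the same build as hg38, and promoter sequences from RefSeq on GRCh38.p14.

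Alternatives were RLE factors, no filter, a replicate block, counts from length-scaled TPM, DESeq2 1.42.0, limma-trend (limma 3.58.1) on log2(TPM + 1) and log2(TPM + 0.1), other thresholds for on, and leaving out each library. The scripts were tested on simulated counts with known changes. Replicate numbers did not pair the libraries. Genes to be named were all members, EED, and up to 4 genes of each list of cofactors, upstream regulators, retinoid genes, flanking genes and long noncoding RNAs, with cell type markers. Members and lists were chosen with earlier results of these data known. 1 further HOX gene is not reported here.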

Additional observations from a re-analysis of the deposited data

How the results depend on the processing

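No HOX gene was called by edgeR under any of the alternatives run. Over all genes DESeq2 called 36 higher and 45 lower, where edgeR called 0 and 0, and leaving out 1 library gave 0 to 15 higher and 0 to 10 lower (9 and 10 without wild type 2, 15 and 8 without EED-knockout 1), the lone library being assumed to vary like the other genotype. RLE factors, no filter, counts from length-scaled TPM and both limma-trend fits called 0 in each direction. The number of HOX genes on in wild type was 35 at 1 TPM, 36 at 0.5 TPM, 24 at 5 TPM and 36 at 1 CPM. The HOXA median of -0.07 was 0.0196 and 0.0201 in the limma-trend fits and -0.12 to 0.058 with 1 library left out. The HOXB median of -0.08 was -0.0162 and -0.0182 in the limma-trend fits and -0.12 to -0.0077 with 1 library left out. The HOXC median of 0.03 was 0.13 in both limma-trend fits and -0.0104 to 0.18 with 1 library left out. The HOXD median of 0.41 was 0.25 on length-scaled counts, 0.31 and 0.34 in the limma-trend fits and 0.17 to 0.50 with 1 library left out. The cause of these shifts was not tested. The limma-trend fits also moved the median of all genes to 0.07 and 0.09. Of 36 members, 18 changed sign under at least 1 of 11 alternatives, none of them called, while 12 were higher throughout (HOXA3, HOXA11, HOXA13, HOXB2, HOXB6, HOXC6, HOXC13, HOXD3, HOXD4, HOXD8, HOXD10 and HOXD11) and 6 lower throughout (HOXA5, HOXA10, HOXB4, HOXB7, HOXB9 and HOXC11).

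With replicate number as a block, edgeR called 0 genes higher and 0 lower, and the medians were -0.07 in HOXA, -0.09 in HOXB, 0.03 in HOXC and 0.42 in HOXD. Libraries of the same number did not deviate together (correlation -0.14), and the crossed pairing, added after the data were seen, also called 0 and 0.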
